A study of Homo sapiens with 4 samples.

Results

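The listed m6A sites of 5 human genes, ALKBH5, FTO, ZNF333, CYLD and CDX2, are described here in bile acid-treated and control gastric epithelial cells. A peak was taken as a site of a gene when its summit lay inside the gene's hg19 span: chromosome 17 from 18.086 to 18.114 Mb for ALKBH5, chromosome 16 from 53.737 to 54.149 Mb for FTO, chromosome 19 from 14.800 to 14.845 Mb for ZNF333, chromosome 16 from 50.775 to 50.836 Mb for CYLD, all on the plus strand, and chromosome 13 from 28.536 to 28.544 Mb, on the minus strand, for CDX2. The CDCA list held 28 such peaks of 52188 in all, and the control list held 43 of 63093. The span edges are rounded to the kb, so positions along a span are not distances from transcript ends. Whether a summit lay in an exon, an intron or an untranslated region was not determined. Both lists come from GES-1, a human gastric epithelial cell line, given chenodeoxycholic acid (CDCA, a primary bile acid) at 100 µM for 48 h or labelled as control. RNA freed of ribosomal RNA was enriched with an m6A antibody and sequenced, and each condition had 1 immunoprecipitated and 1 input library. With 1 library per condition there is no replicate check, and no test between the conditions was made. The cell line's identity was not checked, because the lists carry no gene names.

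N6-methyladenosine (m6A) is set on messenger RNA by a methyltransferase complex, is read by YTH-domain and other proteins, and can be removed by the erasers ALKBH5 and FTO, which are dioxygenases that need iron and 2-oxoglutarate. In messenger RNAs it is typically densest around the stop codon and in the 3′ untranslated region, and it is known to affect RNA stability and translation. ZNF333 is a KRAB zinc-finger protein of the type that usually represses transcription. CYLD is a deubiquitinase that restrains NF-kappaB signalling. CDX2 is a homeobox transcription factor that directs intestinal identity and marks intestinal metaplasia of the stomach. The series concerns ALKBH5 in intestinal metaplasia that bile acid induces in the stomach, and its libraries set the m6A sites of treated cells against those of control cells.

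ALKBH5 had a listed m6A site in the CDCA library and none in the control library, FTO, ZNF333 and CYLD had listed sites in both, and CDX2 had none in either. FTO held 23 peaks in the CDCA list and 31 in the control list. ZNF333 held 2 in the CDCA list and 6 in the control list, and CYLD likewise held 2 and 6. At a −log10 q of 20 or more, these numbers were 2 and 1 for ZNF333 and 2 and 3 for CYLD, so the order of the lists turned for ZNF333. ALKBH5 held 1 in the CDCA list and 0 in the control list. Of the peaks that both lists together held in the 5 spans, 39.4% were CDCA peaks (exact Clopper-Pearson 95% interval 28.0 to 51.7, counting error only), against 45.3% of all peaks listed in the series. The interval includes the value of the whole series. It treats peaks as independent, although most lie in FTO and a shared site is counted in both lists. It therefore cannot decide whether these genes differ from the series. For single genes the CDCA share was 42.6% in FTO (29.2 to 56.8) and 25% in each of ZNF333 and CYLD (3.19 to 65.1). With so few peaks the last intervals could exclude little. Per 100 kb of span, the CDCA and control lists held 5.58 and 7.52 FTO peaks, 4.44 and 13.3 ZNF333 peaks, and 3.28 and 9.84 CYLD peaks.

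**Figure D1:**
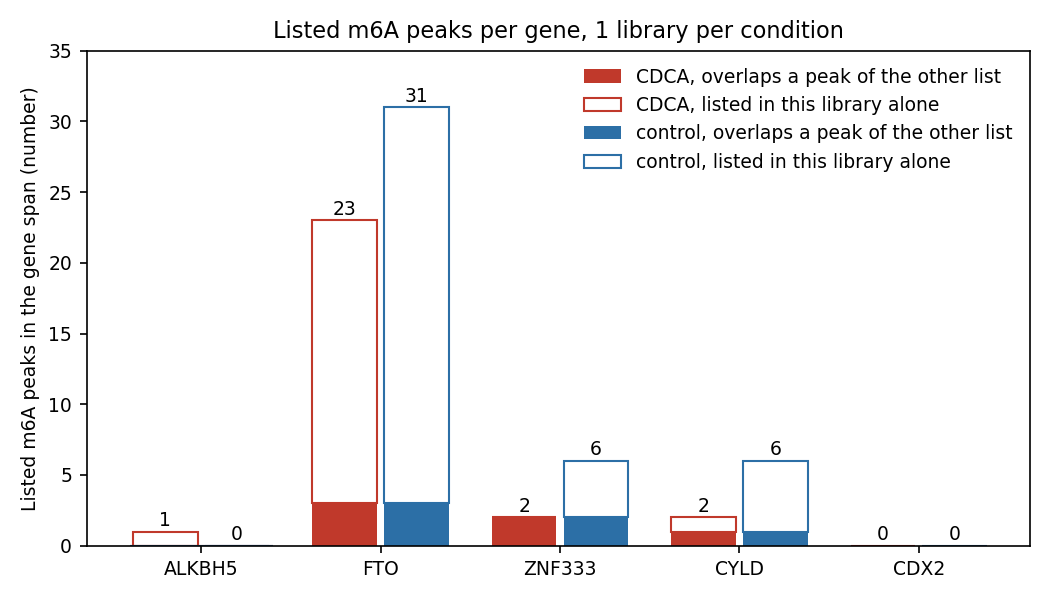
Number of listed m6A peaks in each gene span, with the CDCA library on the left of each pair and the control library on the right. Filled parts of the bars are peaks that overlap a peak of the other list and open parts are peaks listed in 1 library alone; FTO has 23 and 31 peaks, and CDX2 has 0 and 0.

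Most sites of these genes were listed in 1 library alone. A partner was a peak in the other library's list that shared 1 bp or more with the site. In the CDCA list, 6 of the 28 peaks had a control partner (21.4%), against 22.2% of all CDCA peaks. In the control list, 6 of the 43 peaks had a CDCA partner (13.95%), against 18.2% of all control peaks. Stronger sites were shared more often, as they were throughout the lists. At a −log10 q of 20 or more, 5 of 9 CDCA peaks had a partner, against 48.2% of all such CDCA peaks, and 4 of 13 control peaks had one, against 29.5% of all such control peaks. At 100 or more, the single CDCA peak and all 3 control peaks had a partner, where the series' shares were 91.2% and 87.6%. The shares in these genes were therefore near those of the lists as a whole.

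**Figure D2:**
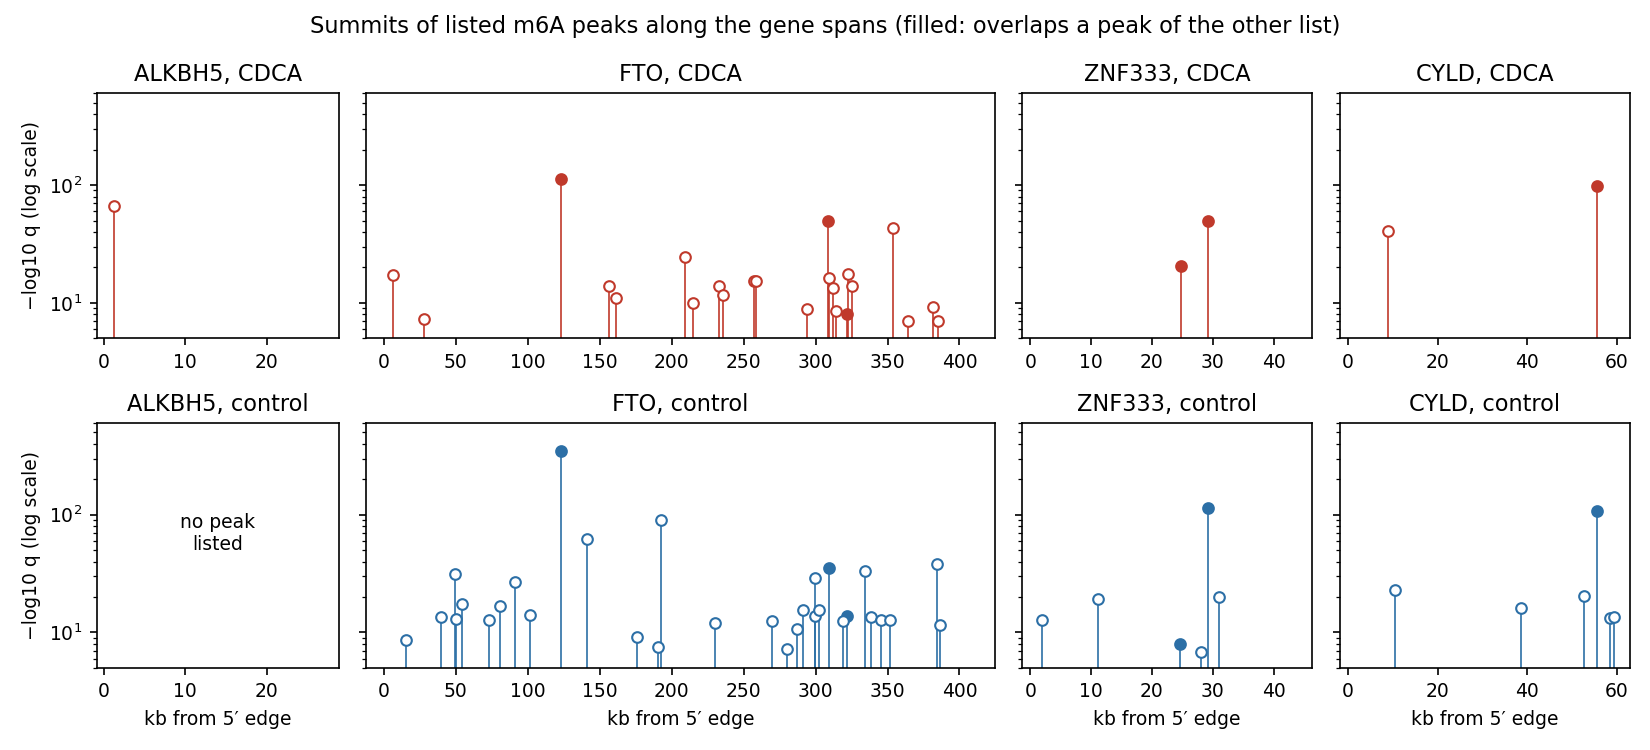
Summits of the listed peaks along the spans of ALKBH5, FTO, ZNF333 and CYLD, as distance in kb from the 5′ edge of the span, against the authors' −log10 q on a log axis, with the CDCA library in the upper row and the control library in the lower row. Filled points overlap a peak of the other list; the tallest FTO site, about 30% along the span, the ZNF333 site near 29 kb and the CYLD site near 55 kb appear in both rows, and ALKBH5 has a single point, in the upper row.

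Each site is described by the authors' values, which rank it within its own list. Values of the lists are set side by side below. Each list has its own height scale and its own local backgrounds, as worked out below, so these values do not measure a change in methylation. Fold enrichment was taken as the summit height plus 1 over a local background plus 1, and no listed peak was below 6. Each summit height was a whole number of steps, worth 0.640 in the CDCA list and 0.862 in the control list, and a step stands for 1 immunoprecipitated fragment if the heights were scaled by 1 constant per library. The intervals given with heights and backgrounds are exact Poisson 95% intervals on these numbers of steps and on whole backgrounds. They cover counting within 1 library only, not its scale or variation between replicates, so their overlap between the lists is no test of the conditions. The local background was recovered from height and fold. It lay at 0.745 or above in the CDCA list and at 0.798 or above in the control list. Among peaks with a background of at least 5, it was a whole number within 0.01 for 69.7% of CDCA peaks and 66.3% of control peaks, as a count of input fragments under the summit would be.

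ALKBH5, the eraser in the study's title, carried 1 listed site, in CDCA-treated cells, at the 5′ end of its span. The CDCA peak lay on chromosome 17 at 18087102 to 18088145, and its summit at 18087274 was 1.27 kb, or 4.55% of the span, from the 5′ edge. At 1044 bp it was among the 1.85% of CDCA peaks that measured at least 1000 bp. Its summit height was 157 (138 to 178), or 246 steps, over a background of 25 (16.2 to 36.9). The fold was 6.09 and the −log10 q 66.9. The site was thus well covered and only just above the lowest listed fold: 89.35% of CDCA peaks had a lower −log10 q, while 4.91% had a lower fold.

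The control list had no ALKBH5 peak, and its nearest peak was 78.3 kb away. The lists number their peaks in order along each chromosome and skip numbers. A skipped number was taken to stand for a peak that was numbered and is not listed. This reading is inferred from the numbering, and the position of such a peak between its listed neighbours is not known. Between the control peaks on either side of ALKBH5, at 17996037 to 17996249 and 18166449 to 18166652, the control list skipped 14 numbers. Whether 1 of these was an ALKBH5 site with a fold below 6 was not tested. In the CDCA list, 66.1% of peaks whose −log10 q lay between 50 and 100, a range chosen after the ALKBH5 value had been seen, had a control partner. That set was matched on −log10 q alone and not on fold, and the ALKBH5 fold was near the lowest listed. A listing in the CDCA library alone does not show that the control RNA lacked the site. In RefSeq (GRCh38.p14, used here for names and order only) no other gene overlaps ALKBH5, and MYO15A and LLGL1 are its protein-coding neighbours.

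FTO, the other eraser, had its strongest m6A site at the same place in both libraries. This site lay at 53859806 to 53860452 in CDCA cells and 53859769 to 53860534 in control cells, with summits 168 bp apart, 29.9% along the span. Its summit height was 182 (161 to 204), or 284 steps, in the CDCA list and 344 (311 to 380), or 399 steps, in the control list. The background was 17 (9.90 to 27.2) in the CDCA list and 13 (6.92 to 22.2) in the control list. The fold was 10.1 in the CDCA list and 24.7 in the control list, and the −log10 q 114 and 345. The listed height was the lower one in the CDCA list, on that list's own scale. Whether the site differed between the conditions was not tested. In the CDCA list 66.7% of peaks had a lower fold than this site, and in the control list 95.1% had one.

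A second FTO site was shared at 54045724 to 54046140 in CDCA cells and 54045977 to 54046198 in control cells. Its height was 46.7 in the CDCA list and 46.6 in the control list, its fold 19.7 and 11.9, and its −log10 q 49.7 and 35.4. The summits were 202 bp apart and the peaks shared 164 bp. The third shared FTO site covered the same 200 bp in both lists, 54058553 to 54058752, and was weak, with a fold of 6.39 in the CDCA list and 8.41 in the control list. Listed height, on each list's own scale, was thus nearly equal at the second site and the fold was higher in the CDCA list. The background recovered from these values was accordingly lower there, at 1.42 against 3 in the control list.

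The remaining strong FTO sites were listed in 1 library alone. In CDCA cells these were 54090433 to 54090645 (fold 15.7, −log10 q 43.0), 53945985 to 53946185 (13.6 and 24.3) and 54059606 to 54059854 (7.93 and 17.6). In control cells they were 53929556 to 53929906 (31.8 and 89.9), 53877904 to 53878147 (19.1 and 62.6) and 54121307 to 54121509 (18.3 and 38.4). The first of the control sites had the highest fold of all FTO sites. At a −log10 q of 20 or more, FTO held 4 CDCA peaks, 2 of them with a partner, against 48.2% of all such CDCA peaks. It held 9 control peaks at this level, 2 of them with a partner, against 29.5% of all such control peaks. Some control sites not named here thus had a higher −log10 q than the last 2 CDCA sites named. The other list skipped 0 numbers around the CDCA site at 54090433 and around the control site at 54121307, so no unlisted peak was numbered between the neighbours there. Around the control sites at 53929556 and 53877904 the CDCA list skipped 3 and 2 numbers.

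The FTO sites were spread along the whole span in both libraries. In the first 20% of the span there were 2 CDCA peaks and 7 control peaks. In the following stretches of 20% each, towards the 3′ edge, the CDCA list had 3, 4, 10 and 4 peaks and the control list 4, 4, 10 and 6. The longest stretch of FTO without a listed CDCA peak ran for 94.6 kb, from 53765243 to 53859806. It held 8 control peaks with folds of 6.72 to 14.9 and −log10 q values of 12.8 to 31.3, and the CDCA list skipped 1 number in it. This stretch was singled out after the values had been seen. Over the whole gene the median fold was 7.83 in CDCA and 8.53 in control, and the median −log10 q 13.8 and 13.8. The shortest listed length, 200 bp, was that of 10 of the 23 CDCA peaks and 12 of the 31 control peaks.

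Beyond the FTO span the nearest CDCA peaks were 8.98 kb before its 5′ edge and 8.62 kb after its 3′ edge. The nearest control peaks were 5.33 kb before it and 170 kb after it. RPGRIP1L lies next to FTO on the lower-coordinate side and IRX3 on the higher one in RefSeq, where the noncoding RNAs FTO-IT1, LOC124903691 and LOC105371271 overlap FTO. The lists give no strand, so a peak in the span of overlapping genes cannot be assigned to 1 of them.

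ZNF333, the zinc-finger gene, had its main m6A site at nearly the same summit in both libraries, with a broad peak in control cells and a short one in CDCA-treated cells. The CDCA peak lay on chromosome 19 at 14829078 to 14829422 (345 bp) and the control peak at 14828854 to 14830247 (1394 bp), with summits 63 bp apart, 65.0% and 64.8% along the span. The CDCA peak lay wholly inside the control peak and covered 24.7% of it. The control peak was among the 1.80% of control peaks that measured at least 1000 bp.

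The fold at this ZNF333 site was 6.97 in the CDCA list and 41.3 in the control list, and the −log10 q was 49.6 and 114. Summit height did not follow the fold: it was 104 (88.3 to 121), or 162 steps, in the CDCA list and 75.0 (60.1 to 92.6), or 87 steps, in the control list. The local background was 14 (7.65 to 23.5) in the CDCA list. In the control list it was 0.840, which is not a whole number and is close to the lowest of that list. It was 18.8 times the lowest background of its own list in CDCA and 1.05 times in control. Because the background was recovered from height and fold, a lower fold beside a taller listed summit gives a higher background by calculation. The background is thus not a separate observation, and the input libraries themselves were not analysed here. In the control list 98.6% of peaks had a lower fold than this site, and in the CDCA list 24.1% had one.

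The second shared ZNF333 site lay upstream, at 14824582 to 14824910 in CDCA cells and 14824514 to 14824767 in control cells. Here the CDCA peak was the taller, with a height of 26.9 (19.4 to 36.3), or 42 steps, against 11.2 (5.97 to 19.2), or 13 steps, in control. Its fold was 10.8 in CDCA and 6.79 in control, and its −log10 q 20.5 and 7.92. These heights are on each library's own scale, and their order was not tested between the conditions. By fold the 2 shared sites of ZNF333 thus stood in opposite order in the lists.

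Another 4 ZNF333 sites were listed in control cells alone. They lay at 14801841 to 14802040, near the 5′ edge (fold 9.19, −log10 q 12.8), at 14811086 to 14811326 (9.53 and 19.3), at 14827848 to 14828047 (6.31 and 6.78) and at 14830859 to 14831058 (11.04 and 19.8). For the last 2 the CDCA list skipped 0 numbers between its neighbouring peaks, so no CDCA peak was numbered there. The more upstream pair fell where it skipped 4. In RefSeq the protein-coding gene ADGRE2 overlaps ZNF333.

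**Figure D3:**
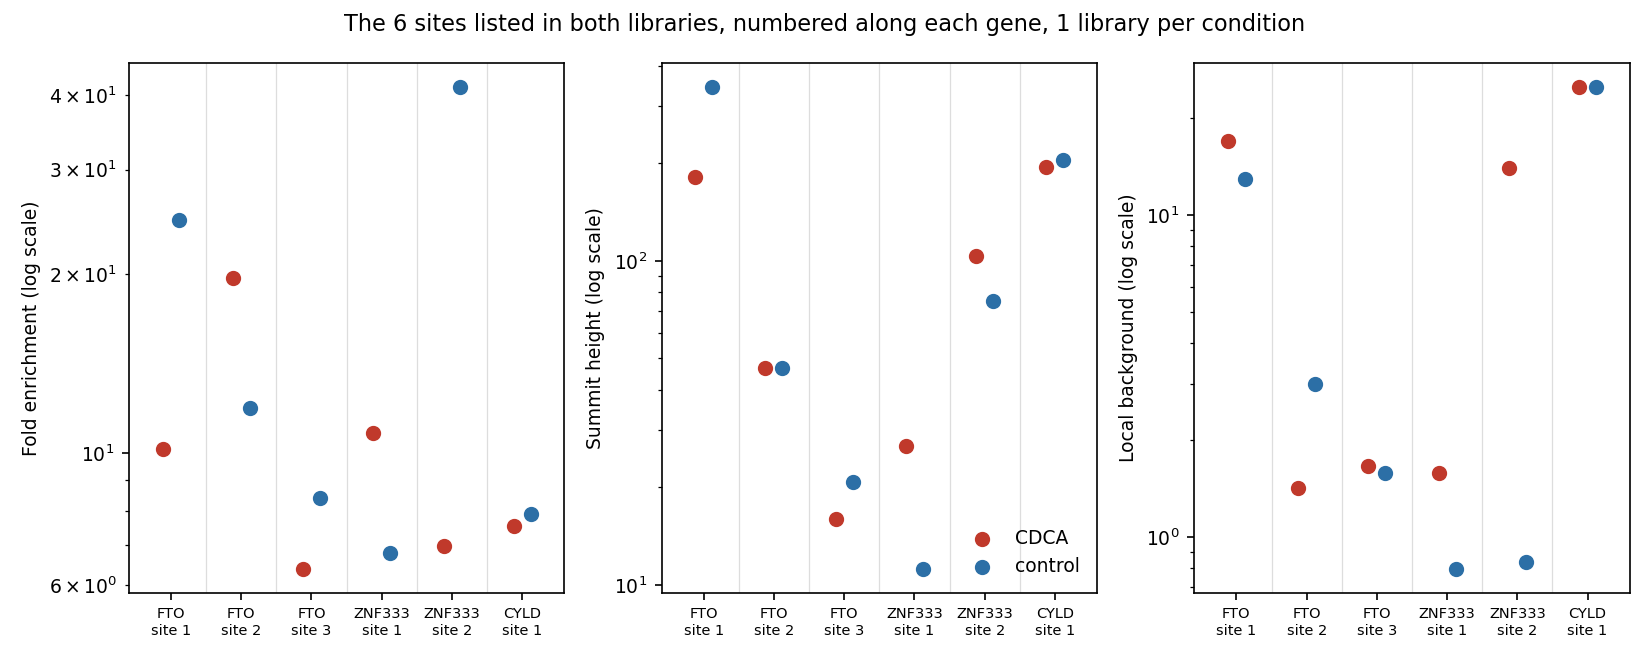
Fold enrichment, summit height and local background, each on a log axis, of the 6 sites that both lists held, with the CDCA library to the left of the control library at each site and 1 library per point. Heights and backgrounds are on each library's own scale, and backgrounds are recovered from height and fold. At ZNF333 site 2 the fold is 6.97 in CDCA and 41.3 in control while the background is 14 and 0.840, and at CYLD site 1 all 3 values nearly coincide.

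CYLD, the deubiquitinase, had its strongest m6A site near the 3′ end of its span in both lists, with almost the same listed values. The peak lay on chromosome 16 at 50830225 to 50830602 in the CDCA list and at 50830288 to 50830605 in the control list, 90.9% and 91.0% along the span. Its height was 195 (174 to 218) in CDCA and 204 (179 to 232) in control, its background 25 and 25, its fold 7.54 and 7.90, and its −log10 q 99.1 and 107. The summits rested on 305 steps in CDCA and 237 in control. Of the 6 shared sites this one had the highest background in both lists.

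The other CYLD sites were listed in 1 library alone. The CDCA list had 1 more, a peak of 550 bp near the 5′ end at 50783628 to 50784177, with a fold of 7.78, a −log10 q of 40.4 and a background of 9 (4.12 to 17.1). The nearest control peak began 1146 bp beyond it, at 50785323 to 50785530, with a fold of 8.13 and a −log10 q of 22.9. The remaining control peaks lay at 50813466 to 50813665 (fold 6.86, −log10 q 16.0), 50827519 to 50827718 (7.66 and 20.5), 50833340 to 50833539 (6.14 and 13.3) and 50834328 to 50834564 (6.19 and 13.4). All CYLD folds in both lists were between 6.14 and 8.13, below the medians of the whole lists, 8.63 in CDCA and 9.67 in control. At none of the 5 CYLD peaks listed in control alone did the CDCA list run on without a skipped number. In RefSeq the noncoding RNAs CYLD-AS1 and CYLD-AS2 and the microRNA gene MIR3181 overlap CYLD.

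**Figure D4:**
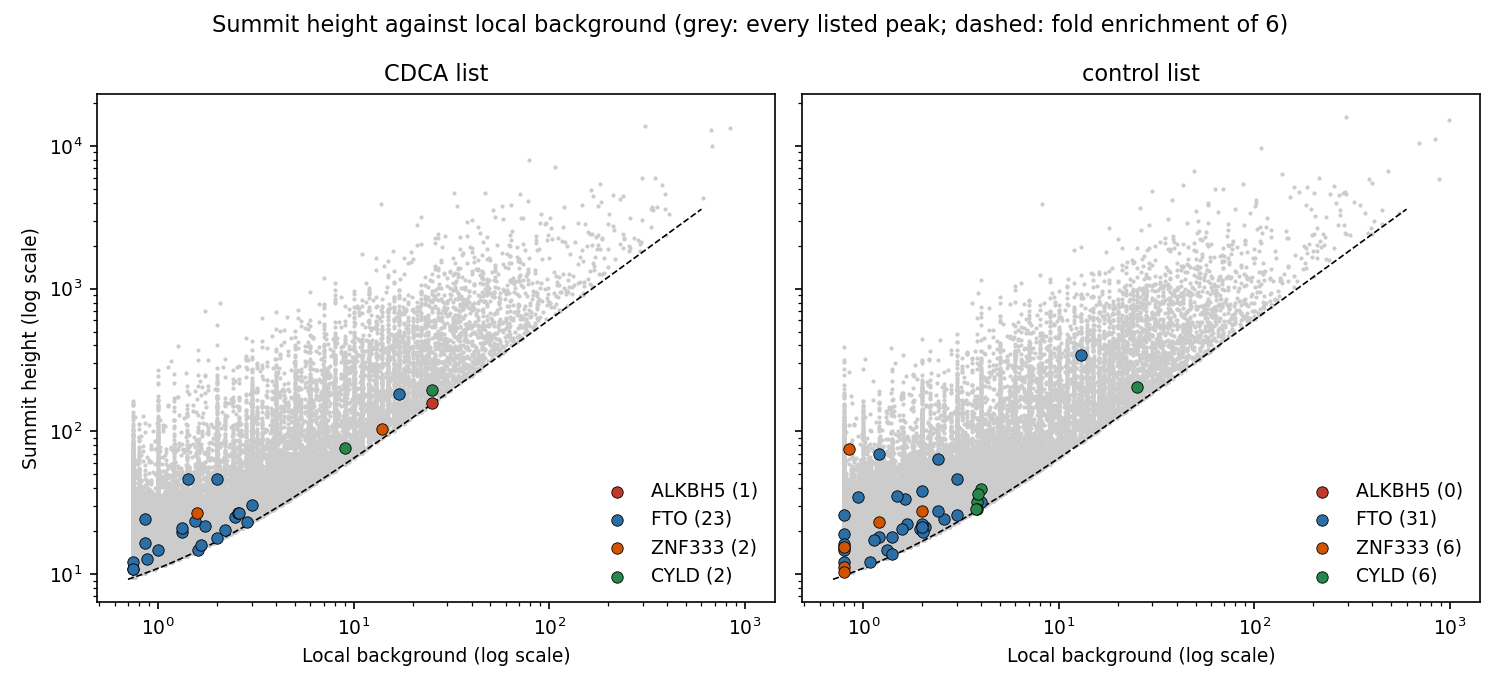
Summit height against local background, both on log axes, in the CDCA list on the left and the control list on the right, with every listed peak in grey and the peaks of the named genes in colour. The dashed line marks a fold of 6; the ALKBH5 peak (fold 6.09) lies on it, most CYLD peaks lie just above it, and the main ZNF333 site lies near the line in the CDCA list (fold 6.97) and far above it in the control list (fold 41.3).

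CDX2, the intestinal homeobox gene, was not listed in either library. The nearest CDCA peaks were 309 kb and 172 kb from the edges of its span and the nearest control peaks 334 kb and 193 kb from them. Each list skipped 3 numbers between these peaks. That CDX2 is not listed does not show that its RNA lacked m6A, and its RNA level was not analysed here. From the lists alone, a gene with sites under the authors' thresholds and a gene with no RNA cannot be told apart. PDX1 and URAD are the protein-coding neighbours of CDX2 in RefSeq.

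The order of the genes by their strongest site differed between the lists. In the CDCA list FTO came first (−log10 q 114), followed by CYLD (99.1), ALKBH5 (66.9) and ZNF333 (49.6). In the control list FTO (345) was followed by ZNF333 (114) and CYLD (107), which lay close together. Among peaks listed in 1 library alone, 7 of 22 CDCA peaks lay where the control list had skipped no number, against 36.8% of all such CDCA peaks, and all 7 were in FTO. Of the control peaks listed alone, 4 of 37 lay where the CDCA list had skipped none, against 26.8% of all such control peaks, 2 of them in FTO and 2 in ZNF333. Over all 28 CDCA peaks the median fold was 7.78, against 8.63 for the whole list, and over all 43 control peaks it was 8.41, against 9.67. The median length was 215 bp in CDCA (224 bp over the list) and 216 bp in control (228 bp). The median −log10 q was 14.6 in CDCA (14.4 over the list) and 13.9 in control (19.9). FTO supplied 23 of the 28 CDCA peaks and 31 of the 43 control peaks, so these medians mostly describe FTO.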

How the data were processed

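Each immunoprecipitated library has its own peak table, which the authors deposited with start, end, length and summit in hg19. The signal values that the authors deposited are pileup heights, per the file headers, and how these were scaled is not given in those headers. Per the file headers, the authors gave every peak a −log10 p-value, a −log10 q-value and a fold enrichment, which is a ratio. TopHat2 2.0.13 and MACS2 2.1.0 appear in the submitters' processing notes with no role given. How the input was used, and which filters and thresholds applied, is not given in these sources. Each table is labelled with 1 library, so nothing was pooled over replicates. Depth in reads is unknown.

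Members were taken by summit position. The local background was computed as height plus 1, divided by fold, minus 1. As a check, Poisson probabilities computed from height and background matched the deposited −log10 p to 2% in 100% of peaks under 200. Intervals are exact (Clopper-Pearson or Poisson, 95%) and cover counting error only. Height steps were fitted, and 100% of heights were whole within 0.02 steps. The genes, spans and rules were chosen with earlier results of these data known. All peaks of a gene with at most 10 per list are named, and for FTO the shared peaks and the 5 with the highest −log10 q in each list. No other pathway gene, cell type marker or sequence motif was analysed, because the lists name no genes and no hg19 genome was used here. RefSeq matched all 5 symbols. Scripts ran in Python 3.11.15 (scipy 1.17.1, pandas 2.3.3, numpy 2.4.6), with figures from matplotlib 3.10.9. The overlap and step routines were tested on simulated data.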

Additional observations from a re-analysis of the deposited data

How the results depend on the processing

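Alternatives covered the peak thresholds, the membership rule and the definition of a partner. Limited to a −log10 q of 20 or more, the spans held 9 CDCA and 13 control peaks, and with a fold of at least 10 they held 5 and 12. For ZNF333 the first limit left 2 CDCA peaks and 1 control peak, which turned the order of the lists, and for CYLD it left 2 and 3. The ALKBH5 peak remained listed at the first level and was lost at the second, as were all CYLD peaks. Counting any overlap with a span, or widening the spans by 2 kb, left 28 and 43 peaks. The number of peaks with a partner was 4 in each list when each peak had to cover at least 50% of the other, and 4 when both lists were limited to a −log10 q of 20 or more. It was 5 with summits within 200 bp. The main ZNF333 pair was among those lost at 50%, since the CDCA peak covers 24.7% of the control peak. Limiting the control list to as many peaks as the CDCA list, an alternative chosen after seeing the data, left 37 control peaks and 5 pairs. Of 45 counts for single genes under these alternatives, 34 stayed within 1.5 times the reported count and 11 moved further, all of them downward under the stricter thresholds. The 34 include counts that were 0 throughout, for CDX2 in both lists and ALKBH5 in the control list. They also include all counts under any overlap and under widened spans, which changed none. At a fold of at least 10 every count above 0 moved, so the counts depend on the thresholds. No paired analysis was possible because each condition had 1 library. Depth in reads is unknown and its effect was not tested. The lowest listed summit rested on 15 steps in the CDCA list and 12 in the control list, no listed fold was below 6, and a site under the authors' thresholds cannot be seen.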
